A study of Homo sapiens with 12 samples.

Results

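GAS5 and 7 further noncoding host genes of small nucleolar RNAs (snoRNAs), namely SNHG1, SNHG3, SNHG5, SNHG6, SNHG7, SNHG8 and SNHG12, were followed on arrays of HuH-7 cells exposed to SLMP53-2. Members were the gene probes named for one of these genes in the scanner files, whatever their values. Of the 8 genes 6 were on the array, with 7 of its 41000 gene probes, since SNHG7 had 2 probes, while no probe carried the name or the accession of SNHG3 or SNHG6. All 7 probes were well above background on all 12 arrays and passed the filter on low signal, as did 33467 probes in all.

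HuH-7 is an established cell line from a hepatocellular carcinoma that carries the p53 mutant Y220C, and SLMP53-2 is a small molecule studied for restoring p53 function to that mutant. Cells were treated for 24 h with the solvent DMSO, with 28 µM SLMP53-2, which is 2 times the IC50, or with 42 µM SLMP53-2, which is 3 times the IC50. Part of the labels give the higher dose as 48 µM. Each group had 4 biological replicates, and the RNA of each was hybridized to a 1-colour Agilent array, so all 3 groups share the p53 mutant background and the solvent, and both doses were compared with the same 4 DMSO arrays.

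The 12 arrays lay on 5 slides, of which 2 held all 3 groups and the other 3 held 2 groups each. Between 65.0% and 85.0% of the gene probes were well above background on an array, and correlations between arrays ran from 0.967 to 0.995. The liver secretory genes ALB, TF, TTR, SERPINA1 and AFP were among the brightest probes of these arrays, and the leukocyte marker PTPRC was well above background on 0 of 12. Replicate 4 of the 28 µM group stood apart from its group. Over the 472 probes called higher at 42 µM, its median lay 0.14 above the DMSO mean on the log2 scale, while the other arrays of its group lay 0.77, 0.92 and 0.82 above it. Results at 28 µM are therefore given with and without this array, which was singled out by its values.

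snoRNAs guide the chemical modification of ribosomal and other RNAs, and most human snoRNAs are cut from the introns of host genes. The exons of a noncoding host gene are spliced into a transcript with short reading frames, which ribosomes enter and which nonsense-mediated decay then removes, so that these transcripts are known to accumulate when translation or this decay is slowed. Many host transcripts begin with a 5′ terminal oligopyrimidine (TOP) tract, the start that is shared by ribosomal protein mRNAs and links their translation to growth signals. GAS5, named for its abundance in growth-arrested cells, is also known as a decoy that binds the glucocorticoid receptor.

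The values below rest on single 60-base probes. Those of SNHG5, which passed the adjusted test at 42 µM, and SNHG1, which did not, are shown with both probes of SNHG7, placed as the scanner files give them on hg19. The position they give for the GAS5 probe spans 18 bases, fewer than the 60 of the probe, and overlaps that of a probe for the antisense transcript GAS5-AS1. The SNHG5 probe A_23_P361085 spans chr6:86386868-86387159 on the minus strand, which is 292 bases and longer than the probe. The SNHG1 probe A_24_P785293 lies at chr11:62619573-62619632 on the minus strand. The SNHG7 probes A_23_P94579 at chr9:139619959-139620018 and A_24_P352116 at chr9:139619969-139620028, both on the minus strand, share the 50 bases in capitals, so they are no independent readings of the gene.
SNHG5: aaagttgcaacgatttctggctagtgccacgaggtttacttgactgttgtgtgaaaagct
SNHG1: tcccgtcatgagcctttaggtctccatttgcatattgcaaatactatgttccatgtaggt
SNHG7, A_23_P94579: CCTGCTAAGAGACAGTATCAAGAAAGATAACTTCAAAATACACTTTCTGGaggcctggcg
SNHG7, A_24_P352116: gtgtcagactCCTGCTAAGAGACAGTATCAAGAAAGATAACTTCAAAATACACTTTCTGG

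The annotated starts show how far the host genes share the TOP tract. A start was counted as TOP-like where its first base is C and at least 4 further C or T follow without a break. In the RefSeq start windows of GRCh38.p14, 2 of the 7 members with a window, SNHG5 and SNHG12, were TOP-like, against 5.14% of all 27305 genes, 74.6% of 63 ribosomal protein genes and 29.4% of 17 other noncoding host genes. The windows below run from 20 bases before the start to the thirtieth base of the transcript, 5′ to 3′ on the strand of the gene, and the unbroken run of C and T at the start is in capitals. They lie at chr1:173869016-173869065 for GAS5, chr6:85678704-85678753 for SNHG5, chr1:28581844-28581893 for SNHG12, chr9:136728155-136728204 for SNHG7 and chr11:62855856-62855905 for SNHG1, all on the minus strand, and at chr4:118278742-118278791 on the plus strand for SNHG8.
GAS5: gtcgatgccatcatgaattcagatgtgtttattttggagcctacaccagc
SNHG5: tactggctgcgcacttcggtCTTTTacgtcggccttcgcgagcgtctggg
SNHG12: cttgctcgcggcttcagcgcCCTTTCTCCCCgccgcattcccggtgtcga
SNHG7: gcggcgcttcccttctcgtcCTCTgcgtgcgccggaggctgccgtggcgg
SNHG1: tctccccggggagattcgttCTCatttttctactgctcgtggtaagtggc
SNHG8: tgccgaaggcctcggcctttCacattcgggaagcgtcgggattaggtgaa
The table gives 1 start for GAS5, the one farthest upstream, which begins with A, and starts that it does not list were not examined. The letters TGATGNAAT, a core of the element bound by ATF4 with C/EBP proteins, were searched on both strands from 250 bases before to 50 after the start. They were found in 0 of the 7 members' windows and in 0.991% of all 35116 windows. With so rare a match, 0 of 7 is the usual outcome for any 7 windows, and control by ATF4 was not tested.

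GAS5 was upregulated at 42 µM. Its log2 intensity was 11.32, 11.50, 11.33 and 11.60 in the DMSO arrays (replicates 1 to 4), with a mean of 11.44 ± 0.13 (SD, n = 4). At 42 µM it was 13.50, 12.89, 12.78 and 12.36, with a mean of 12.88 ± 0.47 (SD, n = 4). All 4 treated arrays lay above all 4 DMSO arrays, and the lowest treated array was replicate 4. The log2 fold change was 1.45 (SE 0.26, 95% interval 0.88 to 2.02), a 2.72-fold rise, with a limma adjusted p = 0.0159, and GAS5 ranked 64 of 24167 genes by its change. Throughout, a probe is called when its adjusted p is below 0.05 and its change, in log2 units, reaches 0.6 upwards or downwards, and over all genes a gene is called through any of its probes. GAS5 was 1 of the 6 host genes called higher and none was called lower, against 1.74% of all genes called higher and 1.58% called lower.

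The GAS5 rise was present on each of the 3 slides that held both groups, where 42 µM exceeded DMSO by 1.90, 1.56 and 1.28 on the log2 scale. With the slide as a block the log2 fold change was 1.53, but the limma adjusted p was 0.0560, and 1 gene in all was called in that fit. Leaving out DMSO replicate 1, DMSO replicate 2 or 42 µM replicate 2 gave GAS5 changes of 1.41, 1.47 and 1.44 with adjusted p of 0.0506, 0.0599 and 0.0663, all from limma, and so ended the call. Without DMSO replicate 2, or without 42 µM replicate 2, 0 genes on the array were called by limma, so that the calls in the gene lists and neighbours given later were lost there as well. Each array read the pooled RNA of a culture, so a change in the mix of cells and a change in RNA per cell cannot be told apart.

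**Figure D1:**
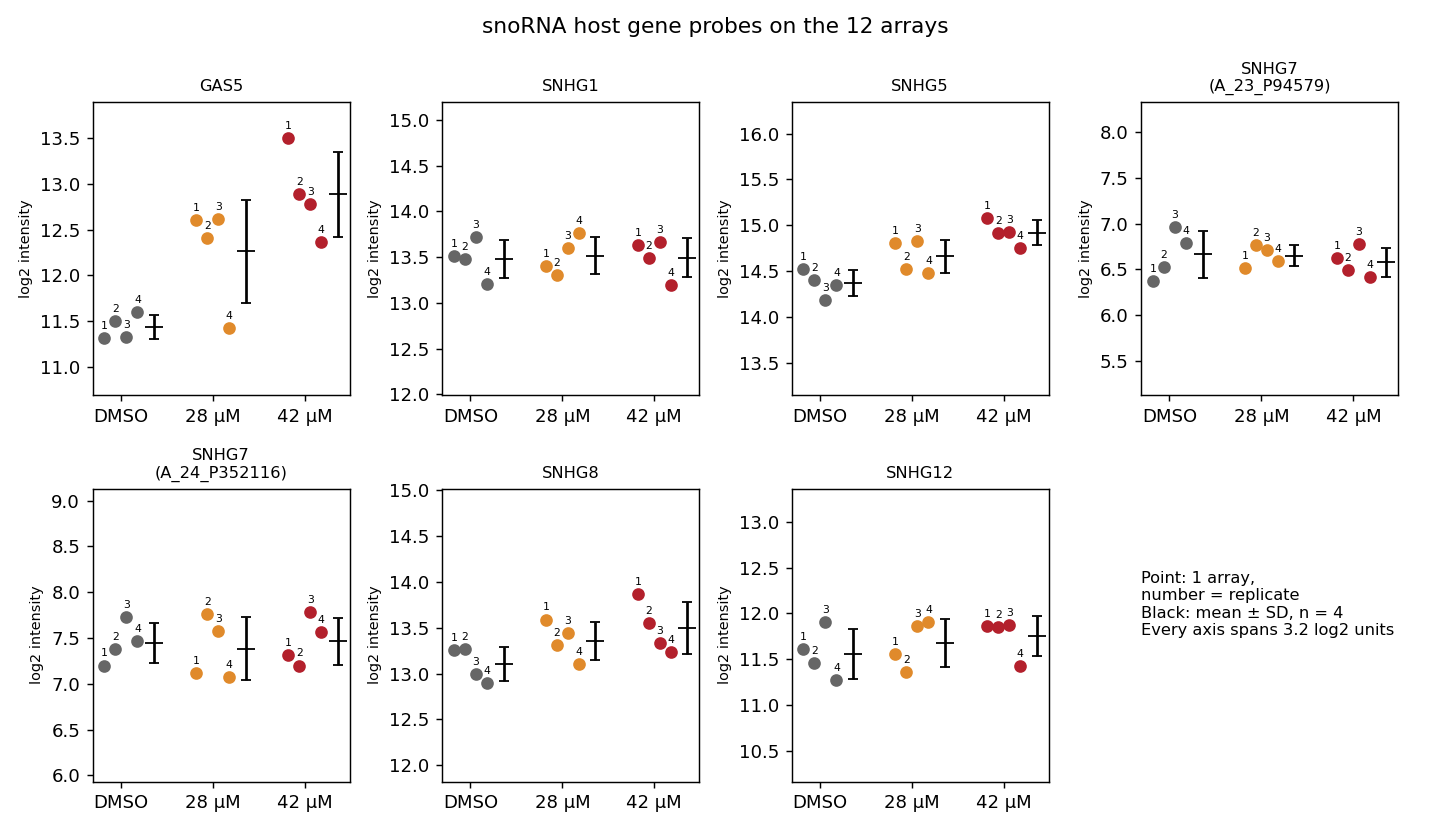
Log2 intensity (vertical axes, each spanning the same range) of the 7 probes on the DMSO, 28 µM and 42 µM arrays (horizontal axes); each point is 1 array with its replicate number, and black marks give the mean ± SD of 4 arrays. The 42 µM arrays lie above all DMSO arrays for GAS5 and SNHG5, and replicate 4 of 28 µM lies at the DMSO level for GAS5.

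At 28 µM the GAS5 arrays were split. The log2 intensities were 12.60, 12.41, 12.62 and 11.43, with a mean of 12.26 ± 0.56 (SD, n = 4). Replicates 1 to 3 were above every DMSO array and replicate 4 lay among the DMSO arrays. The log2 fold change was 0.83 (SE 0.26, 95% interval 0.26 to 1.40), and GAS5 was not called (limma adjusted p = 0.271). Without replicate 4 it was 1.10, with a limma adjusted p = 0.0170. Replicate 4 was singled out by its smaller shift over probes that include GAS5, so this p is no independent test of GAS5. On the 3 slides with both groups the difference was 1.30, 1.0 and 0.10, the last being the slide with replicate 4.

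The 3 GAS5 means rose in the order DMSO, 28 µM and 42 µM, but the difference between the doses, 0.62 (SE 0.26, 95% interval 0.05 to 1.19), was not called (limma adjusted p = 0.9995), and the within-slide differences were 0.90, -0.05 and 1.46. No host gene was called at 28 µM or between the doses, and neither was any gene on the array (0 of 33467 probes by limma, smallest adjusted p 0.115 and 0.9995). The study, at the same limits, reported genes changed at 28 µM, with a large part shared with 42 µM. It also reported changes of selected genes at 28 µM by qPCR. Why its count differs from the 0 found here was not tested. At an unadjusted limma p below 0.05, GAS5 and SNHG5 were higher at 28 µM, 2 of 7 probes against 5.46% of all probes, and GAS5 was higher at 42 than at 28 µM, 1 of 7 against 1.05%.

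**Figure D2:**
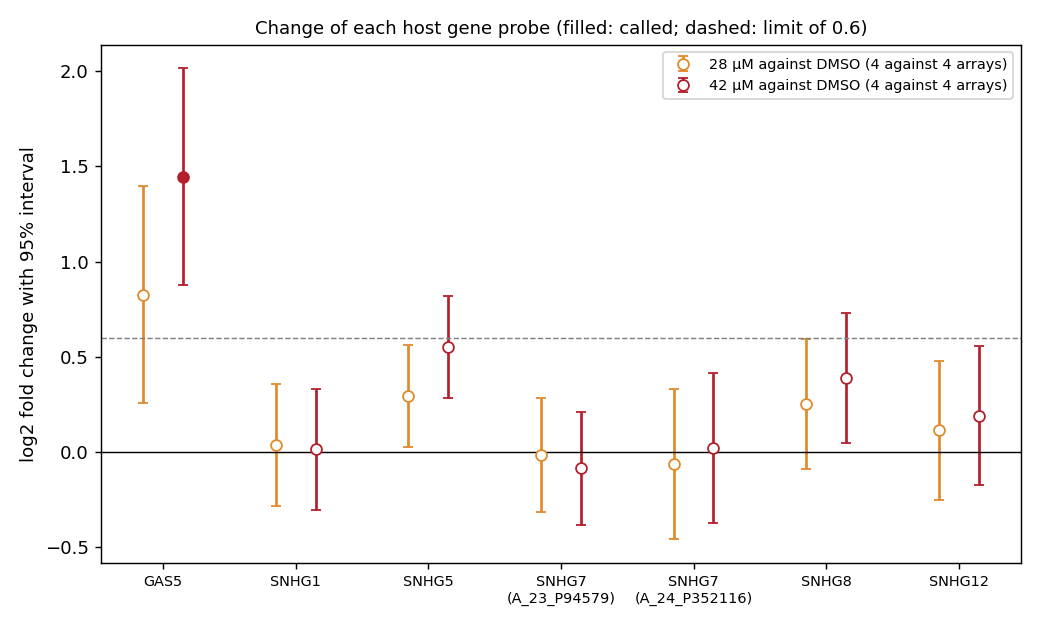
Log2 fold change (vertical axis) with its 95% interval for each host gene probe (horizontal axis) at 28 µM (orange) and 42 µM (red) against the same 4 DMSO arrays; filled points were called and the dashed line marks the limit of 0.6. The GAS5 change of 1.45 at 42 µM is the filled point, and the SNHG1 and SNHG7 intervals include 0 at both doses.

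SNHG5, whose spliced RNA is known to bind the RNA-binding protein STAU1, moved the same way by less. Its log2 intensities were 14.52, 14.40, 14.18 and 14.35 with DMSO. They were 14.81, 14.52, 14.83 and 14.48 at 28 µM and 15.08, 14.91, 14.92 and 14.75 at 42 µM. Each 42 µM array lay above each DMSO array, as for GAS5, so that 2 of 7 probes did not overlap with DMSO, against 5.82% of all probes. The log2 fold change at 42 µM was 0.55 (SE 0.12, 95% interval 0.28 to 0.82), a 1.46-fold rise. Its limma adjusted p of 0.0322 passed the test, as it did upwards for 1.61% of all probes, while its size stayed under the limit of 0.6, and without 42 µM replicate 4 it was called at 0.64. Within slides the difference was 0.73, 0.73 and 0.52. At 28 µM the change was 0.29 (limma adjusted p = 0.408), and without replicate 4 of that group it was 0.35 (limma adjusted p = 0.209).

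SNHG8, the host of the snoRNA SNORA24, gave 13.26, 13.27, 12.99 and 12.90 with DMSO and 13.87, 13.55, 13.33 and 13.23 at 42 µM, where 3 of 4 arrays lay above all DMSO arrays. The difference of 0.39 (SE 0.16, 95% interval 0.05 to 0.73) did not pass the test (limma adjusted p = 0.242). At an unadjusted limma p below 0.05 it joined GAS5 and SNHG5, 3 of 7 probes against 8.23% of all probes. At 28 µM the values ran from 13.10 to 13.59 and the difference was 0.25 (limma adjusted p = 0.585), or 0.34 (limma adjusted p = 0.345) without replicate 4.

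SNHG12, a host of several box H/ACA and box C/D snoRNAs, gave 11.61, 11.46, 11.91 and 11.27 with DMSO and 11.86, 11.85, 11.87 and 11.43 at 42 µM. The difference of 0.19 had a 95% interval of -0.17 to 0.56 (limma adjusted p = 0.685). The 28 µM arrays ran from 11.36 to 11.91, and all 3 groups overlapped. At 28 µM the difference was 0.11, and without replicate 4 it was 0.04.

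SNHG1, the first snoRNA host found to give a spliced RNA with no protein product, gave 13.51, 13.48, 13.72 and 13.21 with DMSO and 13.63, 13.49, 13.66 and 13.20 at 42 µM. The groups covered almost the same range. The difference was 0.01 with a 95% interval of -0.31 to 0.33, so a change as large as that of GAS5 lies outside it, while a change of 0.3 either way does not. At 28 µM, with values from 13.30 to 13.76, it was 0.04, and without replicate 4 it was -0.04. The sign of the 42 µM difference turned where the arrays were scaled to their 75th percentile, to -0.22 with either signal.

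The SNHG7 probes differed by -0.09 (A_23_P94579, 95% interval -0.38 to 0.21) and 0.02 (A_24_P352116, 95% interval -0.37 to 0.42) at 42 µM, and by -0.01 and -0.06 at 28 µM, or 0.01 and 0.04 without replicate 4 of that group. Over the 12 arrays the former ranged from 6.37 to 6.96 and the latter from 7.07 to 7.78. None of these differences passed the test, with limma adjusted p from 0.863 to 0.980.

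The change of GAS5 was set beside those of the other host genes after the values had been seen, so the differences are given as a description with no test. On each array the log2 value of another member probe was subtracted from that of GAS5. At 42 µM the GAS5 change exceeded that of SNHG5 by 0.90, SNHG8 by 1.06, SNHG12 by 1.25, SNHG1 by 1.43, and the SNHG7 probes by 1.53 and 1.42. At 28 µM the excess was 0.53 over SNHG5 to 0.89 over SNHG7, and without replicate 4 it was 0.75 to 1.15. All these differences share the same GAS5 values.

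Other noncoding snoRNA host genes were read from a list of 21, of which 15 were on the array and 12 passed the filter. Of these, 3 were called higher at 42 µM and 0 lower, against 1.74% and 1.58% of all genes. Their median change was 0.34 against -0.02 for all genes. EPB41L4A-AS1, the host of SNORA13, rose by 1.19 (SE 0.26, limma adjusted p = 0.0292), from 11.85, 11.69, 11.54 and 11.68 with DMSO to 13.49, 13.05, 12.59 and 12.40 at 42 µM, while its dimmer probe gave 0.50 (limma adjusted p = 0.134). SNHG32, named C6orf48 on the array, rose by 0.77 (SE 0.19, limma adjusted p = 0.0452). SNHG17 rose by 0.66 (SE 0.14, limma adjusted p = 0.0282) with its brighter probe, and its dimmer probe gave 0.20 (limma adjusted p = 0.712). All 4 arrays of 42 µM lay above all DMSO arrays for these 3 calls, as they did for 5.82% of all probes. The same held for ZFAS1 at 0.79, SNHG29 at 0.50 with its brighter probe and DANCR at 0.37. These were not called (limma adjusted p = 0.111, 0.123 and 0.119).

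As with GAS5, replicate 4 of 28 µM gave the lowest value of its group for EPB41L4A-AS1, where the group read 13.02, 12.35, 12.33 and 11.70. EPB41L4A-AS1 was called in 15 of 25 alternatives, SNHG32 in 11 and SNHG17 in 14, against 20 for GAS5. None remained with the slide as a block, with the processed signal, with either 75th percentile scaling, or without DMSO replicate 1, 2 or 3 or 42 µM replicate 1 or 2, and SNHG17 alone remained without DMSO replicate 4 and EPB41L4A-AS1 alone without 42 µM replicate 3. At 28 µM 0 of the 12 were called, with a median of 0.15, and without replicate 4 of that group again 0, with a median of 0.19. The list ran at 42 µM from -0.43 for SNHG19 to 1.19, so its members did not move as a block. SNHG32 has a TOP-like start, and EPB41L4A-AS1 and SNHG17 do not.

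Protein-coding genes that host snoRNAs in their introns numbered 30, all on the array. Of these, 0 were called at 42 µM by their brightest probe, with a median of -0.05, and the largest change was that of the elongation factor EEF2, 0.68 (SE 0.26, limma adjusted p = 0.204). SF3B3, a splicing factor subunit, was called lower through another probe at -0.62 (limma adjusted p = 0.0394), while its brightest probe gave -0.29. The difference between the coding and noncoding hosts was not tested.

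The decay pathway that removes host transcripts was read through its factors and through coding transcripts known to be sensitive to it. Of 24 factors of nonsense-mediated decay, 0 were called and the median was -0.03. The largest change was that of the decapping enzyme DCP2, which gave -0.57 (SE 0.12, limma adjusted p = 0.0281), short of the limit of 0.6. Its dimmer probe gave -0.32 (limma adjusted p = 0.449). MAGOHB, of the same list, also passed the adjusted test short of that limit, at -0.49 (limma adjusted p = 0.0409). Of 9 sensitive coding transcripts, 3 were called higher at 42 µM and 0 lower, with a median of 0.28. Over all genes 1.74% were called higher and 1.58% lower, with a median of -0.02. ATF3, a stress-induced transcription factor, rose by 2.13 (SE 0.42, limma adjusted p = 0.0196), although its dimmer probe gave 0.32 and did not pass. GADD45A, a growth arrest gene, rose by 1.29 (SE 0.22, limma adjusted p = 0.0146), and ATF4, the transcription factor of the integrated stress response, by 0.76 (SE 0.12, limma adjusted p = 0.0125). UPP1, a uridine phosphorylase, was called through its dimmer probe at 0.73. ATF3 was called in 19 of 25 alternatives, GADD45A in 22 and ATF4 in 20. The 5 others, among them SMG5 and TBL2, were not called. ATF3, GADD45A, ATF4 and UPP1 are also known as genes of the stress response, and which route raised them was not tested.

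Ribosomal protein genes are known for TOP tracts, and 74.6% of the 63 with a window had a TOP-like start by the rule above. Of 77 tested, 0 were called by their brightest probe and the median was 0.06. The largest change was that of RPL36A, 0.44 (SE 0.23, limma adjusted p = 0.415). RPS26 was called lower through another probe at -0.65, while its brightest probe gave -0.08. Of 22 other translation genes known for a TOP tract, 1 was called higher, the initiation factor EIF4B at 0.72 (SE 0.17, limma adjusted p = 0.0359). The median of this list was 0.18, against -0.02 for all genes, of which 1.74% were called higher. EIF4B was also called by another of its 6 probes, and its brightest probe was called in 13 of 25 alternatives.

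Of 23 translation control genes, 2 were called higher and 0 lower, with a median of -0.03. Over all genes 1.74% were called higher and 1.58% lower, with a median of -0.02. EIF4EBP1, the repressor that binds the cap-binding factor eIF4E, rose by 1.27 (SE 0.20, limma adjusted p = 0.0113). PPP1R15A, which directs a phosphatase to the initiation factor eIF2α, rose by 0.99 (SE 0.24, limma adjusted p = 0.0423). EIF4EBP1 was called in 22 of 25 alternatives and PPP1R15A in 13. Of 18 proteins that assemble or form snoRNPs, the particles in which snoRNAs work, 0 were called. A positive change was seen in 2 of the 18, against 45.7% of all genes. The median was -0.16, and the largest change was -0.32 for NOLC1, a nucleolar chaperone (limma adjusted p = 0.448). Rates of translation or of decay were not measured.

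The glucocorticoid receptor and its targets were read because GAS5 RNA can occupy that receptor. Of 10 such genes, 2 were called lower at 42 µM and 0 higher, against 1.58% and 1.74% of all genes. SGK1, a kinase induced by glucocorticoids, fell by 1.30 on the log2 scale (SE 0.26, limma adjusted p = 0.0208), and ZBTB16, a transcription factor induced by them, fell by 0.99 (SE 0.20, limma adjusted p = 0.0212). The other 8 were not called and the median was -0.05. SGK1 was called in 17 of 25 alternatives and ZBTB16 in 18. A link of these falls to GAS5 was not tested.

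At 28 µM 0 genes were called in each of these lists with all arrays. Without replicate 4 of that group, 386 genes in all were called higher and 265 lower at 28 µM. The calls then included ATF3 at 1.84, GADD45A at 1.14 and ATF4 at 0.62 among the transcripts sensitive to decay, EIF4B at 0.67, EIF4EBP1 at 1.18, SGK1 at -1.02 and ZBTB16 at -1.03, with limma adjusted p from 0.00177 to 0.0285. The lists of coding hosts, decay factors, snoRNP proteins and ribosomal protein genes gave 0 calls there too.

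The neighbours of the host genes were examined because several share a promoter region with a coding gene. SNHG1 begins 224 bases from the start of SLC3A2, which encodes the heavy chain of amino acid transporters and runs the opposite way. SLC3A2 read 12.23, 12.28, 12.23 and 12.21 with DMSO and 14.67, 14.85, 14.11 and 14.08 at 42 µM, a rise of 2.19 (SE 0.29, limma adjusted p = 0.0112), and ranked 15 of 24167 genes. Its other probe gave 2.60. At 28 µM it read 13.95, 14.07, 14.08 and 12.55, where replicate 4 was again the lowest. The change at 28 µM was 1.42 (limma adjusted p = 0.171), and without replicate 4 it was 1.79 (limma adjusted p = 0.000471). Because replicate 4 was singled out over probes that include SLC3A2, the latter p is no independent test of SLC3A2. SLC3A2 was called at 42 µM in 22 of 25 alternatives. SNHG1, on the other strand, differed by 0.01 with an upper bound of 0.33, below the lower bound of 1.55 for SLC3A2.

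GAS5 overlaps the coding gene ZBTB37, a zinc finger gene read from the other strand, which gave 0.26 (SE 0.29, limma adjusted p = 0.774) with its brighter probe and -0.01 with its dimmer one. The antisense transcript GAS5-AS1 has a probe of its own. It was well above background on 4 of 12 arrays, read 6.03 with DMSO and 6.06 at 42 µM, and differed by 0.04. A probe named for SNORD22, a snoRNA inside SNHG1, gave -0.14 (limma adjusted p = 0.876). Whether this probe reads the mature snoRNA or longer RNA of the host was not tested. Beside SLC3A2, 0 of the 11 other neighbours reported were called, with changes from -0.51 for RAB42 to 0.26 for ZBTB37.

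**Figure D3:**
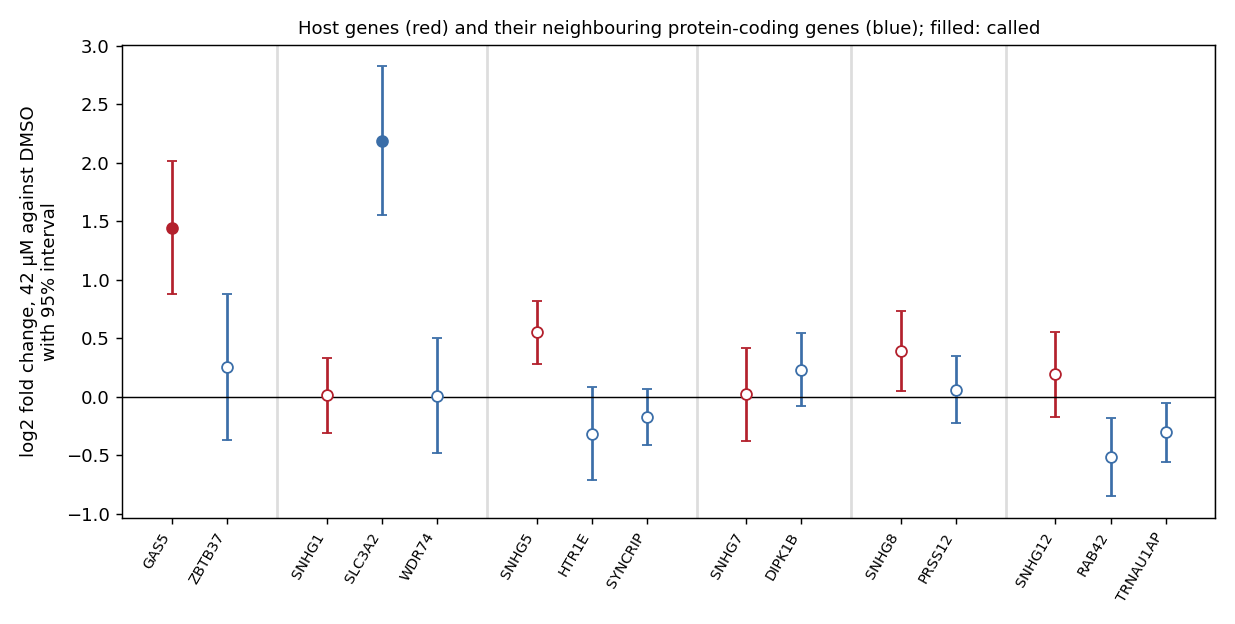
Log2 fold change at 42 µM against DMSO with its 95% interval (vertical axis) for each host gene on the array (red) and the nearest protein-coding genes that were tested (blue), grouped by locus; filled points were called, and SNHG7 is shown by its brighter probe. SLC3A2 at 2.19 stands beside SNHG1 at 0.01, and GAS5 at 1.45 stands beside ZBTB37 at 0.26.

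The genes whose pattern was most like that of GAS5 were found by the root mean square difference over the 12 arrays, after each gene was centred on its DMSO mean. Over 24124 genes the median difference was 1.07 log2 units. The smallest were 0.196 for NOSTRIN, a regulator of nitric oxide synthase traffic, 0.199 for PHLDA1, 0.214 for the transcription factor CEBPB, 0.216 for the fucosyltransferase FUT1 and 0.222 for KLHL24. These genes were chosen by the values, which are given as a description. Their mean rise at 42 µM was 1.27 to 1.48, and their lowest 28 µM array, at 11.22 for NOSTRIN and 11.42 for CEBPB, lay at the level of DMSO or just under it, where the DMSO arrays ran from 11.09 to 11.41 and from 11.44 to 11.64.

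**Figure D4:**
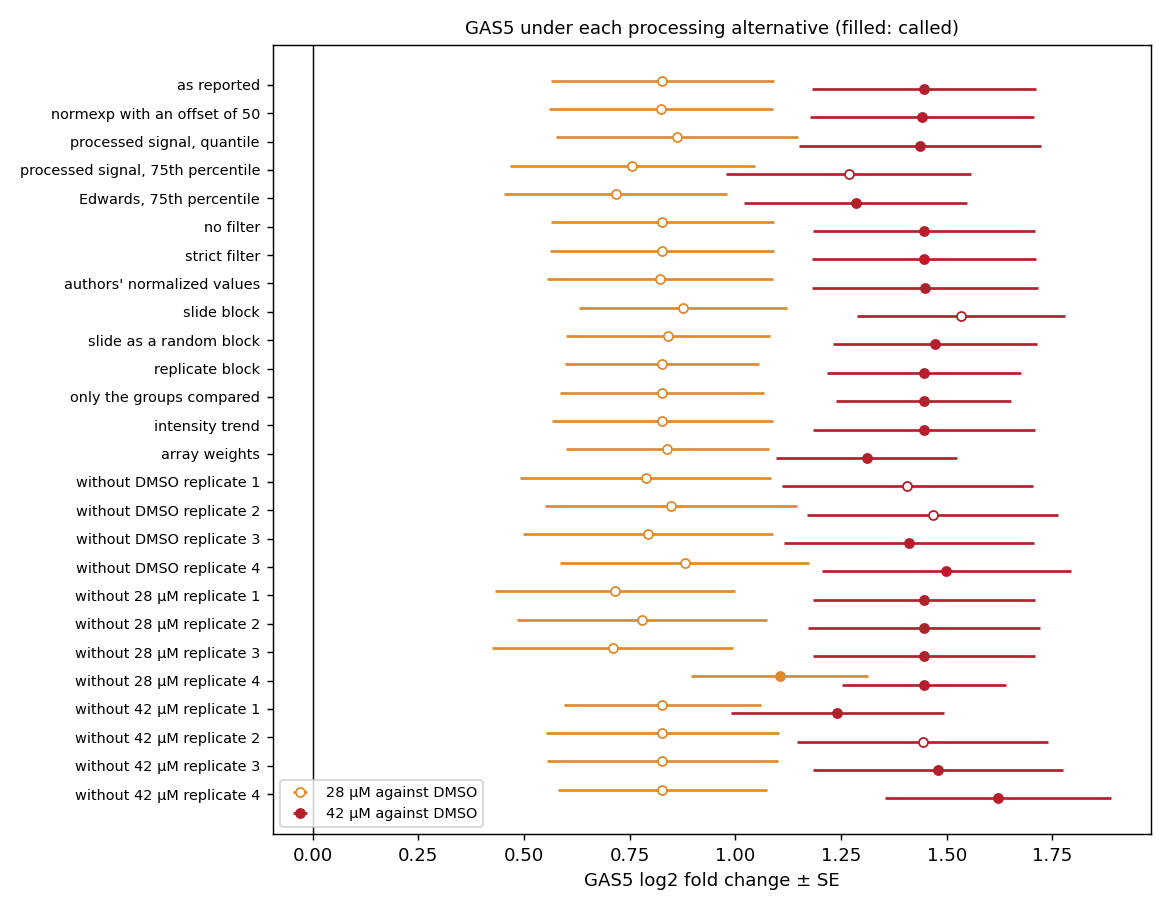
GAS5 log2 fold change ± SE (horizontal axis) at 28 µM (orange) and 42 µM (red) against DMSO under each processing alternative (rows); filled points were called. At 42 µM the change stayed between 1.24 and 1.62 and was called in 20 of 25 alternatives, and at 28 µM it was called without replicate 4 of that group.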

How the data were processed

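RNA of 12 HuH-7 cultures, 4 per group, was measured on 1-colour arrays. The authors deposited Agilent Feature Extraction 10.7.3.1 output with the mean and background intensity of each spot and its flags, and a table of log2 values that the authors had background-corrected (Edwards method) and quantile normalized. This table served as an alternative. Depth does not apply to arrays: their number limits the precision.

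Control spots and outlier spots were left out, and Edwards correction, quantile normalization and log2 were applied with limma 3.58.1 in R 4.3.3. The filter removed probes that failed to rise well above background on 3 or more of the 4 arrays of each group, leaving 33467. The 3 groups were fitted together (lmFit, eBayes), two-sided, with Benjamini-Hochberg adjustment over these probes. The methods name a 2-fold limit and the results a log2 limit of 0.6, which was used here. Probes were matched to RefSeq names by accession (28078 matched). Lists read a gene by its brightest probe, and counts over all genes by any probe. Named are all member probes, the nearest coding genes, the 3 called genes of largest change per list (or the largest change) and the 5 genes most like GAS5. SNHG19, ZFAS1, SNHG29, DANCR, MAGOHB, SMG5, TBL2, RPS26, SF3B3, UPP1, GAS5-AS1 and SNORD22 were added after their values were seen. The members and lists were chosen with earlier results of these data known. Start windows are RefSeq's (GRCh38.p14), used with no probe position. The script was tested on simulated data with independent normal noise, no slide effect and no deviating array. Of 200 probes changed by 1.5, 93.5% were recovered at 42 µM and 95% at 28 µM, with 8 and 10 false calls. Because these arrays differ from that setting, the shares check the script and do not give the power here. Alternatives changed background correction, scaling, filter, slide or replicate block, fit and arrays. Figures were drawn with matplotlib. A neighbouring gene and a probe sequence are not reported here.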

Additional observations from a re-analysis of the deposited data

Results flagged for a closer look

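Each member probe was examined for an array far from the other 3 of its group, in 21 groups of 4 arrays, of which chance alone would put about 1 in 20 past the critical value of the Dixon test. Only SNHG12 at 42 µM passed it: replicate 4, at 11.43, lay below the others at 11.86, 11.85 and 11.87, and this gap made up 0.949 of the group's range. GAS5 at 28 µM, where replicate 4 read 11.43 against 12.41 to 12.62, came to 0.822 and did not pass.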

How the results depend on the processing

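The count of member genes called at 42 µM, 1 as reported, became 0 with the processed signal scaled to the 75th percentile and with the slide block, and 2 with no limit on fold change. Leaving out 1 array gave 0 to 2 members. GAS5 kept its direction in all 25 alternatives at 42 µM (1.24 to 1.62, adjusted p 0.00125 to 0.0663 by limma), was called in 20, and with the processed signal at the 75th percentile gave 1.27 with adjusted p = 0.0507. At 28 µM the count of members was 0 and leaving out 1 array gave 0 to 1, and between the doses it was 0 throughout. SNHG5 passed the adjusted p in 14 of 25 alternatives at 42 µM, with 0.32 to 0.64. Values that turned sign and moved by over 1 SD between replicates were SNHG1 at 42 µM, to -0.217 with the processed signal and -0.222 with the Edwards signal scaled to the 75th percentile, SNHG1 at 28 µM, to -0.192, and the SNHG7 probe A_23_P94579 at 28 µM, to 0.178, both with the processed signal at the 75th percentile. The cause was not tested. Other values near 0 of SNHG1, SNHG7, SNHG12 and the neighbours PHACTR4 and WDR74 turned sign by less than that. With the replicate number as a block, GAS5 gave 1.45 (limma adjusted p = 0.00844) at 42 µM, the member counts stayed at 1, 0 and 0, and over all genes 668 were called higher against 420. The numbers mark no shared culture in the labels, and same-numbered arrays deviated together only in part (correlations -0.46 to 0.62), so they were not taken as pairs. The call of DCP2 appeared in 1 of 25 alternatives. With DMSO replicate 2 or 42 µM replicate 2 left out, 0 genes in all were called at 42 µM (smallest limma adjusted p 0.0505 and 0.0522). Without 28 µM replicate 4, which was singled out by its values, 386 genes were called higher at 28 µM. GAS5, SNHG5, SNHG8, SNHG12 and SNHG1 each rest on 1 probe.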
